A study of Mus musculus with 16 samples.

Results

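The constitutive distal open regions of mouse haematopoietic stem cells (HSCs) were 1447 stretches of the genome in which a peak of open chromatin was called in all 16 libraries. Their summits also lay away from the ends of protein-coding genes. They were 27.5% of the 5262 regions called in all 16 libraries, and those were drawn from 37108 regions called in at least 1. To find them, peaks on chromosomes 1 to 19 and X that overlapped by at least 1 bp were merged over the 16 peak lists. Members were chosen by measured values: the calls of a peak in each library, the summit positions and the peak widths. A member had its median summit more than 1 kb from either end of every protein-coding gene of GRCm38 and held no single peak of 2500 bp or wider. The other regions called in all 16 libraries were 3525 at gene ends (67.0%) and 290 distal regions with a wider peak (5.5%). A further 20925 distal regions were called in 2 to 15 libraries and are called variable distal regions here.

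Open chromatin was profiled by Omni-ATAC, an assay in which a transposase cuts and tags accessible DNA, in 10000 sorted HSCs per library. There were 4 libraries in each of 4 groups, all from male mice. Young pre and old pre were HSCs of B6 donors before transplantation, from pools of 3 to 4 mice aged 8 to 12 weeks or from 1 mouse aged 24 months. Young post and old post were HSCs taken 3 months after 1000 HSCs of the same donors had been given, with 300000 Sca-1-depleted BJ helper marrow cells, to 5 lethally irradiated young BJ recipients, whose marrow was pooled. The pre and post libraries of the same age and number therefore shared their donors. Whether a donor marker was used in the sort after transplantation is not stated in the labels, so host, helper and donor cells cannot be told apart there. No donor group carried a transgene or a deletion, per the labels.

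Open chromatin away from gene ends is where enhancers, insulators and unannotated or internal promoters lie. Enhancers bind lineage factors such as RUNX1, GATA2, ERG and TAL1 in HSCs and are usually the part of the accessible genome that differs most between cell types. Insulator sites bound by CTCF, which anchors chromatin loops together with cohesin, tend to be open in many cell types. HSCs of aged mice are known for a larger pool of phenotypic stem cells, a bias toward myeloid and platelet output and lower repopulating capacity per cell.

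The sequences that follow show what kind of DNA lay under members at a start site, where sequence was at hand. RefSeq start-site windows (GRCm38.p6), from 250 bases before to 50 after a start, were used, and only the 250 bases before the start were searched for motifs. Of the 32619 windows in the table, 251 held the summit of a member. Gm38882, a non-coding RNA start beside Zfp239 (chr6:117879383-117879632, + strand), and Cnnm2, whose product is a magnesium transport protein of the plasma membrane (chr19:46761359-46761608, + strand), carried a CTCF motif. It was searched as CNAGGGGGC on both strands and is shown in capitals:

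Gm38882: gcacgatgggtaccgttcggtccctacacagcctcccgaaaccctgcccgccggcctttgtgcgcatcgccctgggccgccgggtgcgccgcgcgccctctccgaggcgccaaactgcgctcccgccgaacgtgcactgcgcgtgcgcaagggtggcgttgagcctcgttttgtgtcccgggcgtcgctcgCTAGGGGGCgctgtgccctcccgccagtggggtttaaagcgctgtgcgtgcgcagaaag
Cnnm2: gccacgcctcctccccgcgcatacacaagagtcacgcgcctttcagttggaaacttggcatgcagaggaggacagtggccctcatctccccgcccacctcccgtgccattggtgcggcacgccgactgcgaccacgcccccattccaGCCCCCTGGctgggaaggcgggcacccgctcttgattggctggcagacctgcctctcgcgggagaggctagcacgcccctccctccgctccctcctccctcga

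Lpar5, a lysophosphatidic acid receptor gene (chr6:125071085-125071334, + strand), and Gm52920, a non-coding RNA start within Etv6 (chr6:134186514-134186763, - strand), held the most other motifs. In both, capitals mark the letters AGGAAGT, a core bound by ETS factors, on either strand. They also mark TGTGGT, the core that RUNX factors read. Lpar5 in addition held a GATA core, searched as AGATAA, and in Gm52920 an E-box, searched as CAGCTG, overlapped the RUNX letters:

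Lpar5: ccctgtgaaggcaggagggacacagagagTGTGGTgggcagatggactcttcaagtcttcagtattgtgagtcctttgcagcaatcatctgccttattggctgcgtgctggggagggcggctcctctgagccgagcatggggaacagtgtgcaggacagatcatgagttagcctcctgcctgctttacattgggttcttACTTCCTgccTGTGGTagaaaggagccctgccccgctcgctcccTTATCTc
Gm52920: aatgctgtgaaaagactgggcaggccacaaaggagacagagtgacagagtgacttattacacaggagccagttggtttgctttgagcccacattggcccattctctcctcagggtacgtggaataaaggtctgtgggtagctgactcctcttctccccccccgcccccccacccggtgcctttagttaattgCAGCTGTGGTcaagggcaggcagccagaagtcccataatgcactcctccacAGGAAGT

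Across the 251 windows, the median GC content was 60.8% with 17 CpG dinucleotides, against 52.4% and 6 over the whole table. The 2202 windows under constitutive regions at gene ends had 61.6% and 18, and the 937 under variable distal regions had 56.8% and 10. CTCF letters were present in 14 windows, or 5.58% (95% Wilson interval 3.35 to 9.14%, which covers counting error only), against 2.43% of the table. The share was 4.68% at gene ends and 4.38% in variable distal regions, both inside that interval. The looser spelling CNAGGNGGC was found in 12.35% of the members' windows and in 7.0% of the table. NFY letters (CCAATCA), a motif of promoters, stood in 17.93% of the members' windows, 23.25% of those at gene ends, 7.9% of those under variable distal regions and 7.26% of the table. The members' windows held RUNX letters in 7.17% and GATA letters in 4.38%, where the table held them in 13.95% and 10.02%. AP-1 letters (TGANTCA) were in 3.98% against 6.78%, and E-box letters in 9.16% against 13.07%. Windows at gene ends were low too, with 10.45% for RUNX, 4.13% for GATA, 3.32% for AP-1 and 9.99% for E-box letters. Under variable distal regions these shares were 14.3%, 8.11%, 7.79% and 15.37%. Windows at a start are a minority of the members, and these shares say nothing of the others.

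All members were called in every library, so their presence could not differ between groups, and their rank was compared in its place. The deposited score of a peak is an area that grows with its width and its significance, and it was summed within each region. Each region was then given the percentile of that sum among the 5262 regions of the same library, with the strongest near 100. A percentile gives a position among the same regions in a library and not an amount of open chromatin.

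Peak lists held 5711 to 32557 peaks, and read depth is unknown. The members' median percentile lay between 32.37 and 40.32 in the 16 libraries, below that of gene ends (49.88 to 55.18) in each. The rule bears on this order, since it took the 290 wide distal regions, with a median percentile of 87.15, out of the members and no wide region out of the gene ends. Over the 1447 members the mean percentile ran from 0.75 to 99.47 with a median of 36.66, so they covered nearly the whole range of strengths. The median SD of a member's percentile over the 16 libraries was 8.47. Over the members, Spearman correlations of old pre 4 with the other old pre libraries were 0.525 to 0.69. Young pre 4 gave 0.713 to 0.793 with the other young pre libraries. All other pairs within a group gave 0.836 to 0.979, and those within young post 0.973 to 0.979. Gene-end peaks of 9 of 12 HSC marker genes were called in at least 12 libraries, among them Kit, Mecom, Meis1 and Tal1 in all 16. Erg was called in 10, and Slamf1 and Ly6a in 0. Of the markers of other cells, 0 of 3 for NK cells, 0 of 5 for mature myeloid cells, 1 of 4 for B cells, 2 of 4 for T cells, 2 of 5 for erythroid cells and 2 of 7 for endothelial and stromal cells reached 12 libraries. These were Cd79a (13), Cd3d (15), Cd4 (13), Klf1 (16), Epb42 (12), Kdr (15) and Col1a1 (14).

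A single library set most of the membership. Of 1444 distal regions called in 15 libraries, 1403 lacked the call only in old pre 4, the shortest list, and 41 lacked it only in young pre 4. Without old pre 4 the rule gave 2851 members, and leaving out any other library gave 1445 to 1488. A member is thus a distal region strong enough to be called in old pre 4. This choice can favour regions that were high in that library, so the counts and medians of the comparison of old with young pre are given with and without it.

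The median width of their peaks was 1168 bp, against 486 bp for variable distal regions and 1301.5 bp for constitutive gene ends. The rule itself used width and calls in all libraries, and gene ends had no width limit, so these widths only describe the classes. Of the 1447 members, 906 (62.61%) had their summit inside a protein-coding gene, against 57.98% of variable distal regions. The median distance to a gene end was 10258 bp, and 54 members lay more than 100 kb from any protein-coding gene. The SD of the summit position over the 16 libraries had a median of 27.73 bp, against 24.26 bp at constitutive gene ends and 19 bp in variable distal regions. In 776 members (53.63%) all summits fell within 100 bp, against 57.42% and 70.78%. In 1118 members no library split the region into more than 1 peak.

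Distance from gene ends did not mean distance from transcription starts. Among the 1410 members on chromosomes in the start-site table, 405 (28.72%) had their summit within 1 kb of a RefSeq start, 293 of them at an internal or alternative start of a protein-coding gene and 111 at a long non-coding RNA. For variable distal regions the share was 9.57%. The share was between 5.74% and 8.02% for regions called in 2 to 11 libraries, 10% for 12, 14.64% for 13, 12.83% for 14, 22.86% for 15 and 28.72% for all 16. Median width rose from 375 bp in regions called in 5 libraries to 1168 bp in those called in all 16, at every step. Members near a start were stronger, with a median percentile of 45.52 against 33.43 for the 1005 others. The label "distal" thus held with respect to gene ends, and 1005 members were distal from every listed start as well.

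**Figure D1:**
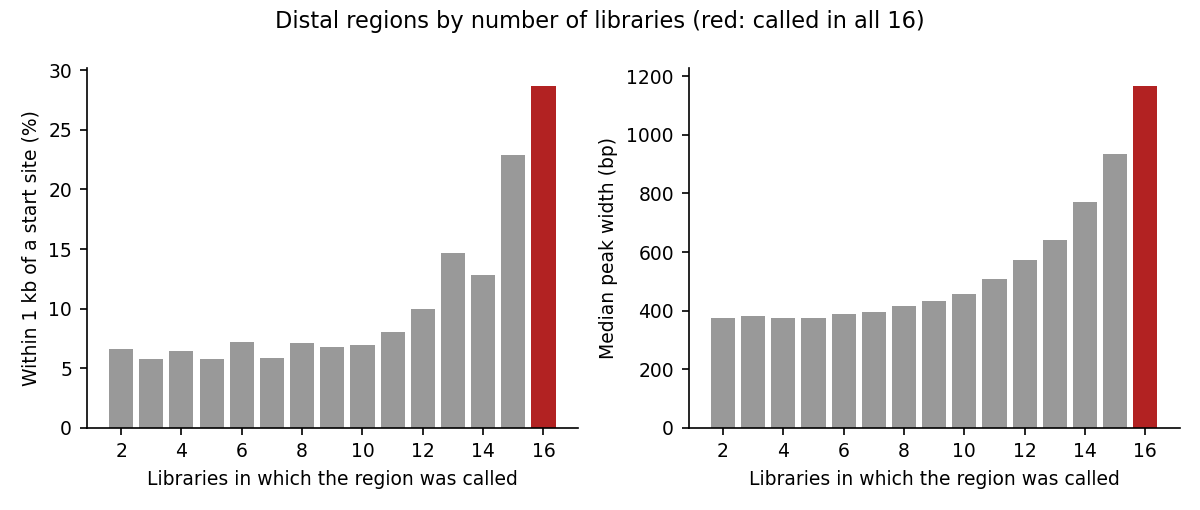
Share of distal regions with no peak of 2500 bp or wider within 1 kb of a RefSeq start site (left panel, percent) and median peak width (right panel, bp), by the number of libraries in which the region was called. The bar for all 16 libraries, in red, is the members, at 28.72% and 1168 bp.

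At the thresholds of the rule, the members nearest to a gene end lay 1003 bp (Zc3hav1), 1004.5 bp (Slc11a1) and 1006 bp (Ercc5) from it, and the nearest left out lay at 997 bp (Anapc5), 994 bp (Csnk1a1) and 991 bp (Cdk2ap2). The widest peaks kept were 2497 bp (Mtfr2), 2496 bp (Gm5544) and 2492 bp (Yy1), and the narrowest left out were 2500 bp (Gm40365 and Hk1) and 2506 bp (Ccdc69).

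The strongest members were of different kinds. The highest mean percentile, 99.47, belonged to a region at chr2:98666193-98667379, more than 1 Mb from Lrrc4c with a median peak width of 1186.5 bp. Its width was 1186 to 1187 bp in all 16 libraries, and its 3 highest values were in the 3 shortest lists. Close by lay 2 narrow members, at chr2:98662455-98663026 and chr2:98664884-98665267. Whether this stretch is prone to artefacts was not tested. Several others lay at internal starts: Kat6b, a histone acetyltransferase gene (mean percentile 93.86, 733 bp from the start), Stx4a, a syntaxin of the plasma membrane (92.8, 86 bp), Idh1, the cytosolic isocitrate dehydrogenase (92.7, 670 bp), Chst15, a sulfotransferase (92.4, 266 bp), and Slc27a1, a fatty acid transporter (91.4, 82 bp). The region in Clec11a, a growth factor gene, had 92.95, and the region near Cd180, a B cell surface receptor, had 91.66 at the start of the non-coding Gm41046. Impact (96.92), Zfp958 (96.5) and Ppm1b (93.72) were also among the strongest 12. Stx4a was also among the steadiest, between 91.3 and 94.7 in all 16 libraries.

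Genes that regulate HSCs often had a member close by. Of 27 HSC transcription factor genes, 12 (44.4%) were the gene nearest to a member within 100 kb, among them Bcl11a, Cbfa2t3, Etv6, Ldb1, Lmo2, Mecom, Meis1, Prdm16, Runx1, Zfp36l2 and Zfpm1. Among all 21627 protein-coding genes the share was 5.7%. Runx1, the factor required for blood stem cells to arise, had 3 members within the gene with mean percentiles of 39.98, 65.74 and 78.48. Bcl11a, Cbfa2t3 and Zfp36l2 had 2 each. The lists were chosen with results of these data known, gene length was not accounted for, and no list was tested.

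The other lists had fewer. Immediate early and AP-1 genes had a member in 6 of 17 (35.3%): Fos (mean percentile 67.04), Fosb (27.86 and 21.49), Ier3, Jun, Klf2 (58.56) and Nr4a1 (39.02). Adhesion and surface markers had 5 of 19 (26.3%): Procr, the receptor EPCR used to sort HSCs (66.94), Cxcr4, the receptor that retains them in marrow (53.75), Selp, P-selectin (52.66), Itga2b, the CD41 chain (30.24), and Itga6 (11.41). Chromatin architecture genes had 3 of 13 (23.1%), with Yy1 at 11.6 and 82.6, Stag1 at 59.33 and Wapl at 25.41. Cytokine receptors had 4 of 22 (18.2%), with Kit at 55.29. Lineage lists were lower: erythroid and megakaryocyte genes 2 of 13 (Vwf at 50.44, Klf1 at 39.93), myeloid 2 of 14 (Cebpe and Ly6c2), cell cycle 1 of 13 (Ccnd3) and lymphoid priming 1 of 16 (Ets1 at 51.67). Among T, B and NK cell genes only Klrb1c of 11 had members, 3 in all at 42.06 to 55.34, although its gene end was called in 0 libraries. Of 10 endothelial and stromal genes 0 had one.

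Members were spread over all 20 chromosomes, with a median gap of 533525 bp between neighbours. The densest window of 1 Mb, chr7:80000001-81000000, held 9 members near Idh2, Sema4b, Crtc3, Iqgap1 and Zscan2. The window at chr8:84000001-85000000 held 8, near Nfix, Klf1, Cacna1a and others, and that at chr10:80000001-81000000 held 7, as did windows on chromosomes 5 and 6. By gene, Gse1, which encodes a subunit of a histone demethylase complex, had 6 members with mean percentiles from 17.48 to 79.88. Tex14, a testis gene, had 5 within 41 kb that were alike, from 51.34 to 71.02. Bahcc1 and Chd2, a chromatin remodeller gene, had 4 each, and 12 genes, among them the DNA methyltransferase gene Dnmt3a, Runx1 and Zmiz1, had 3.

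Before transplantation, 46 members differed in rank between old and young HSCs, 44 of them higher in old. They included single members within Arhgef10, Sp110, Runx1, Itga5, Mcu, Zfpm1 and Selp, and 2 within Vmp1, upstream of the microRNA gene Mir21a. The 2 that were lower in old lay near Fam102a and within Disc1. The test was limma with the donor as a random block and Benjamini-Hochberg adjustment over the 5262 regions, and it called 65 regions in all (1.24%), with 1.05% higher in old and 0.19% lower. At gene ends it called 14 of 3525, 8 higher and 6 lower, with no test of the difference between the classes. In each of the 46 the 4 old and 4 young pre libraries did not overlap, which was so for 4.33% of all regions and 7.53% of members. Called differences ran from 4.76 to 56.54 percentile points in size, with a median of 24.16. Each old library came from 1 mouse and each young one from a pool of 3 to 4, so age and pooling cannot be told apart.

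The count depended on the measure, the choice of regions and single libraries. Leaving out 1 library gave 23 (young pre 3) to 50 (old pre 4), with 29 without old pre 1, 29 without young post 1 and 30 without young post 3. Over all regions the first 2 of these fits called 25 and 78. With old and young of the same number as the block 94 members were called, and 176 regions in all. No member was called by the rank of area per base, the area divided by peak width, although 40 of the 44 kept their direction. The 44 moved with width: their mean width was greater in old than in young pre libraries in 39, while among all 1447 members that was so in 419. The part of width in the result was not tested further. When regions were chosen without old pre 4, 99 of 2851 members were called, 77 higher and 22 lower, and gene ends gave 46, 14 of them higher. Of all 8790 regions of that choice 151 (1.72%) were called. With transposition day as a covariate, which rests on day 2, the only pre day that held both ages, 247 members were called, 153 higher and 94 lower. That fit called 850 of all 5262 regions, where the fit as reported called 65. The share called higher was thus 95.7% as reported, 77.8% with regions chosen without old pre 4, 76.8% with ranks among the members alone, and 61.9% with day in the fit. Exact permutation of single regions, whose p cannot go below 0.0286 with 4 against 4, called 0 after adjustment, and 109 members had an unadjusted p at that floor.

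**Figure D2:**
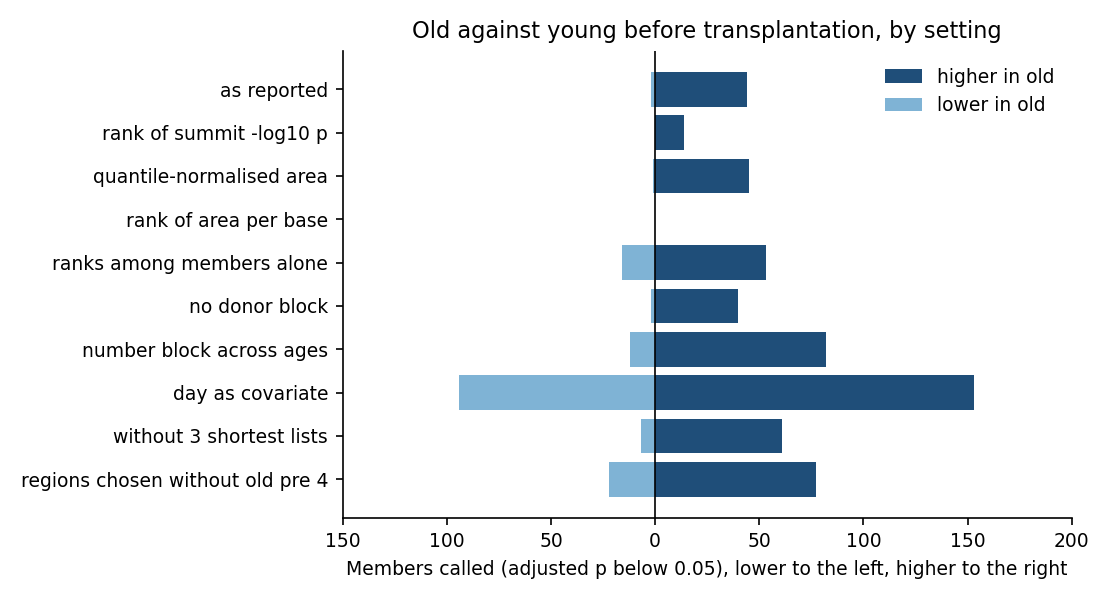
Number of members called between old and young before transplantation under 10 settings, with members lower in old to the left of 0 and those higher in old to the right. Higher members outnumbered lower ones in every setting with calls, from 44 against 2 as reported to 153 against 94 with day in the fit, and area per base gave 0.

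The region within Arhgef10, a guanine nucleotide exchange factor gene, had the smallest p of those higher in old (chr8:14992106-14993579). Its call was lost in 2 of 24 alternative limma fits, the rank of the −log10 p at the summit and area per base. Of the 24 fits, 16 each left out 1 library. Exact permutation, which is not among the 24, called 0 members. Its percentiles were 24.0, 29.6, 27.6 and 17.9 in young pre and 73.6, 64.4, 61.5 and 61.3 in old pre libraries. It then stood at 6.5, 6.8, 7.0 and 10.6 in young post and at 13.8, 26.1, 15.9 and 13.4 in old post. It was thus high in old HSCs before transplantation and low in all 8 post libraries, a difference of 40.41 ± 4.0 (SE, adjusted p = 0.00016) between old and young pre.

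Sp110, a nuclear body protein gene induced by interferon, had the largest difference (chr1:85600141-85601598, 278 bp from a start of Sp140). Young pre libraries gave 8.3, 11.2, 5.2 and 0.1, and old pre libraries 52.3, 59.1, 57.1 and 82.5. The post libraries were at 46.7 to 56.4 in young and 63.0 to 85.8 in old. Only the young pre group was low, and the old-minus-young difference before transplantation was 56.54 ± 6.26 (adjusted p = 0.00034). Sp110 and Sp140 belong to a family of similar genes in a repeated part of chromosome 1, where reads may be shared between copies.

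Members at blood regulators were among the 44. One of the 3 members in Runx1 (chr16:92620527-92622215) had percentiles of 24.4, 27.9, 17.6 and 3.8 in young pre and 47.9, 55.7, 52.2 and 60.4 in old pre, a difference of 35.59 ± 6.77 (adjusted p = 0.017). The other 2 did not pass (-6.35, adjusted p = 0.88, and -8.87, adjusted p = 0.62). Zfpm1, the GATA cofactor FOG1, rose from 14.5 ± 5.4 to 41.1 ± 6.4 (SD, n = 4 libraries each, adjusted p = 0.012). These were 2 of the 17 members of the HSC transcription factor list, whose median difference was 4.87 against 1.48 over all members within 100 kb of a gene. Without old pre 4 in the fit these medians were 7.79 and 0.64.

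Surface and signalling genes followed. Itga5, the fibronectin receptor chain, rose from 13.1 ± 6.5 to 46.4 ± 2.7 (adjusted p = 0.012) and Selp from 38.7 ± 5.6 to 61.1 ± 7.8 (adjusted p = 0.048). Selp was 1 of 5 adhesion members called and 1 of the 2 members near genes known for higher expression in old HSCs; the other, in Vwf, was not called (-12.37, adjusted p = 0.77). The region 31444 bp from Slc2a1, the glucose transporter GLUT1, rose from 36.3 ± 5.0 to 63.3 ± 4.4 (adjusted p = 0.0075), Mcu, the mitochondrial calcium channel, from 20.4 ± 12.9 to 63.4 ± 10.5 (adjusted p = 0.029) and the region 53325 bp from Pim1, a survival kinase gene, from 27.3 ± 9.9 to 51.0 ± 9.3 (adjusted p = 0.043). By area per base the Pim1 difference was -4.34 (adjusted p = 1.0). A region near the start of Cd55, a complement inhibitor, rose from 20.4 ± 1.8 to 37.3 ± 7.0 (adjusted p = 0.044).

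Both members within Vmp1, an autophagy gene whose 3′ part carries the promoter of miR-21, were called. The stronger (chr11:86586158-86588410) lay 2941 bp from the Mir21a hairpin. It had 85.3, 86.9, 80.9 and 77.3 in young pre and 95.9, 95.5, 92.0 and 97.4 in old pre (12.6 ± 2.2, adjusted p = 0.011). The weaker (chr11:86592123-86593606), 9086 bp from the hairpin, had 9.9, 18.1, 14.4 and 7.5 in young pre and 31.6, 39.7, 37.3 and 47.9 in old pre (26.65 ± 5.07, adjusted p = 0.017). The 2 regions were 3712 bp apart. In all, 35 members lay within 10 kb of a miRNA hairpin, and the other called one for age was in Itga5, 8009 bp from Mir6963. The mature products of Mir21a (chr11:86584067-86584158, - strand, RefSeq) are shown with the seed, bases 2 to 8, in capitals:

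mmu-miR-21a-5p: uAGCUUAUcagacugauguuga
mmu-miR-21a-3p: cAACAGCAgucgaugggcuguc

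Several members that were higher in old were among the weakest regions in young pre HSCs. The region 67640.5 bp from Tmc1, a hair cell channel gene, lay at the start of the non-coding 4930554I06Rik (chr19:21104120-21105363) and gave 0.4 to 2.9 in young pre and 23.6 to 39.0 in old pre libraries (31.36 ± 3.92, adjusted p = 0.0012). A second called member in Gda, the guanine deaminase gene, lay 335911 bp away and rose by 20.25 ± 2.94 from 0.1 to 1.4 in young pre (adjusted p = 0.0032). Alk, a receptor tyrosine kinase, Col16a1, a collagen gene, Foxl1, a forkhead gene, Xylt1, of proteoglycan synthesis, and Gm6569 had differences between 18.96 and 41.43. Only 5 of the 43 old-higher members on chromosomes in the start-site table (11.6%) lay within 1 kb of a start, where 28.72% of all members did. The share was also low in members called between post and pre. On the same chromosomes it was 13.6% of those higher post (6 of 44) and 15.6% of those lower post (7 of 45).

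Only Fam102a and Disc1 marked members that were lower in old. The region 39892 bp from Fam102a (chr2:32494449-32496111) had 52.5, 62.7, 51.0 and 41.2 in young pre and 23.4, 27.1, 6.1 and 13.6 in old pre. It was back at 45.2 to 55.8 in old post, with a difference of -34.33 ± 5.49 (adjusted p = 0.0059) before transplantation. Disc1, a scaffold protein gene, had -24.6 ± 5.19 (adjusted p = 0.033). That call was lost in 8 of the 16 fits that left out 1 library.

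**Figure D3:**
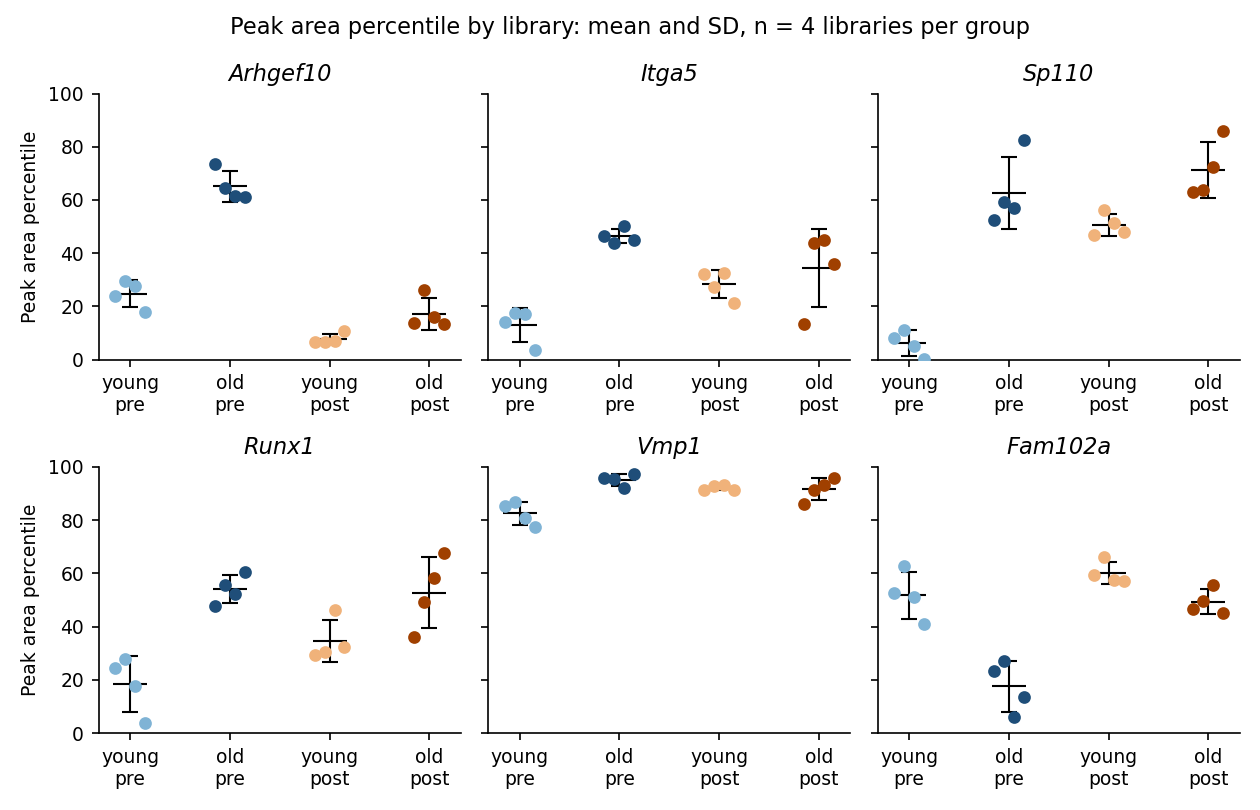
Peak area percentile (y axis, 0 to 100) of 6 members in the 16 libraries, by group; points are libraries, and bars give the mean and SD of 4. Old pre libraries stood above young pre in 5 panels (the Vmp1 panel is the stronger of its 2 members) and below in Fam102a.

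After transplantation, 0 of the 1447 members and 0.0% of the 5262 regions were called between old and young (limma), and 74 members had an unadjusted p below 0.05. The fit took 1 spread per region from all 4 groups, pre libraries included. The members' median SE was thus 5.38 both here and before transplantation. The 0 calls therefore do not show that no age difference was left. By exact permutation 0 were called, and 162 members had an unadjusted p at the floor of 0.0286, which means that the groups did not overlap. That was so for 11.2% of members and 11.6% of all regions. The smallest p before adjustment belonged to regions near Gem (15.3), Gprc5a (20.69) and Cystm1 (12.13) on the higher side and in Arih2 (-19.57), Idh2 (-21.74) and Cops7a (-17.07) on the lower side, each with an adjusted p of 0.91. Arih2, at an internal start of a ubiquitin ligase gene, had 78.7, 76.0, 73.9 and 73.2 in young post and 52.5, 51.2, 64.4 and 55.4 in old post libraries, which did not overlap.

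The 44 members that were higher in old before transplantation were not called afterwards. In 39 of them the old post mean was above the young post mean, with a median difference of 4.76. The old post mean was below the old pre mean in 38, and the young post mean above the young pre mean in 37. Their group medians were 14.56 in young pre libraries, 40.95 in old pre, 26.97 in young post and 29.69 in old post. The pre values that chose these members enter both of the last counts, so a return toward the middle is built into them. Whether the age difference itself shrank was tested by the interaction of age and stage, which called 1 member (0.019% of all regions). That call was lost in 13 of the 16 fits without 1 library and without the donor block, in which 0 members were called.

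**Figure D4:**
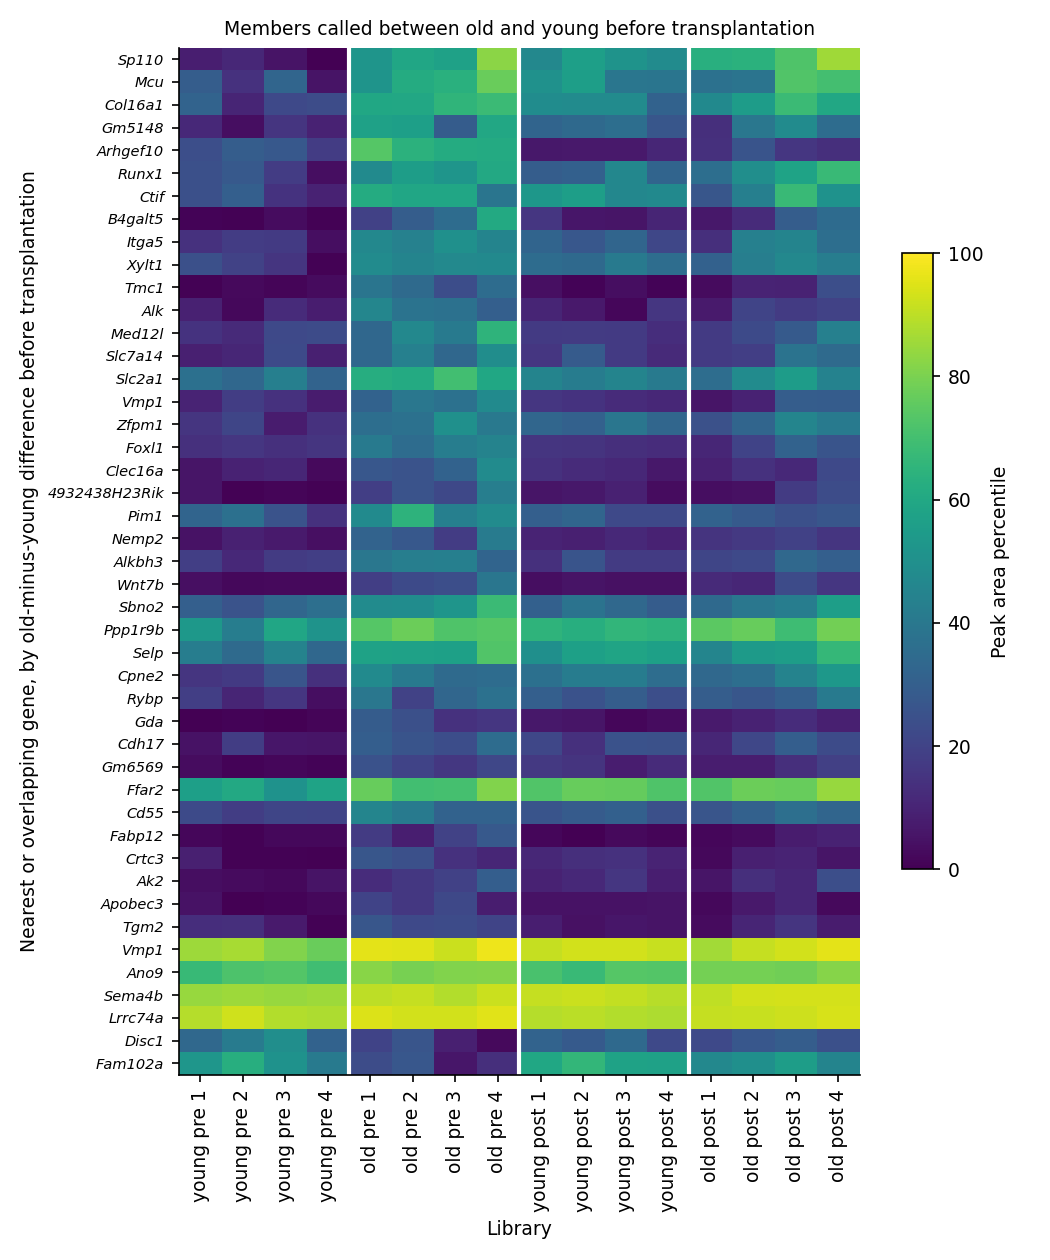
Peak area percentile (colour, 0 to 100) of 45 of the 46 members called between old and young before transplantation, 1 row per member named by its nearest or overlapping gene, in order of the difference, and 1 column per library. The 4 old pre columns are brighter than the 4 young pre columns in 43 rows and darker in Disc1 and Fam102a, and the post columns lie mostly between.

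Between post and pre HSCs of both ages, 93 members differed in rank, 48 higher after transplantation and 45 lower (limma with donor block). Of all 5262 regions 3.55% were called, 1.88% higher and 1.67% lower. Gene ends gave 87 of 3525, 49 higher and 38 lower. Regions in Lama3, Prex1, Hk1, Hip1 and Sp110 and near Zfp36l2 were higher, and regions in Arhgef10, Tmod3, Ppard and Itga6 and near Socs3 and Nr4a1 were lower. Pre and post libraries were transposed on different days, so stage and day cannot be told apart. Without the donor block 52 members were called, 32 higher and 20 lower, and leaving out 1 library gave 43 to 99. Without the 3 shortest lists the count was 157, with 70 higher and 87 lower, and by area per base it was 13. Over all regions the counts in these 4 settings were 102, 79 to 205, 389 and 24. By area per base 44 of the 48 higher members kept their direction and 4 were called, and 37 of the 45 lower ones kept theirs and 1 was called. Gene-end peaks of the myeloid markers Lyz2 and Itgam were called in 0 of 8 pre libraries and in 5 and 2 of 8 post libraries. Of these, 4 and 2 were young post libraries, whose lists held 30807 to 32557 peaks. Elane, S100a8 and S100a9 were called in 0 of 16. Markers of other cells gained calls too. Col1a2 had 1 in young pre, 2 in old pre, 4 in young post and 3 in old post, and Cd79b had 1, 0, 3 and 1. No listed marker had fewer calls post than pre. The part of these markers in the ranks was not tested.

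Lama3, a laminin chain gene (chr18:12346688-12348118), had the smallest p of those that rose. Its percentiles were 5.16, 2.63, 9.36 and 19.98 in young pre libraries, 6.20, 8.41, 0.67 and 1.30 in old pre, 29.94, 31.63, 33.17 and 30.23 in young post, and 33.84, 27.01, 21.69 and 30.64 in old post. All 8 post libraries stood above all 8 pre libraries, by 23.05 ± 2.4 on average (adjusted p = 0.0002).

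Prex1, a Rac exchange factor gene of myeloid cells, had the largest rise, 31.68 ± 5.1 (adjusted p = 0.0037), from 2.1 to 37.1 in pre to 44.5 to 61.9 in post libraries. Cage1 rose by 26.04, Slc34a1 by 21.48, Uaca by 17.87, Hk1, the hexokinase gene, by 17.56, Hip1 by 14.99 and Tedc1 by 13.74, with adjusted p of 0.0025 to 0.0038. Among HSC transcription factor members, 2 of 17 rose and 0 fell: one of the 2 near Zfp36l2, an mRNA decay factor (22.9 ± 3.78, adjusted p = 0.004), and that of Lmo2, a TAL1 partner (16.04, adjusted p = 0.046). Yy1 (11.1, adjusted p = 0.049) was the only one called of 4 chromatin architecture members, and by area per base its difference was -1.59 (adjusted p = 0.94).

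Arhgef10 also had the smallest p of those that fell, with a difference of -32.47 ± 2.6 (adjusted p = 1.4e-05). All 8 pre libraries stood at 17.9 to 73.6 and 7 of 8 post libraries under 17. The call was lost in 1 of 22 alternative limma fits, of which 16 each left out 1 library. Exact permutation, which is not among the 22, called 0 members. Tmod3, an actin capping gene, fell by 22.39 ± 2.77 (adjusted p = 0.0007) and Ppard, a nuclear receptor of lipids, by 27.19 ± 3.78 (adjusted p = 0.0012). The region 2405.5 bp from Socs3, the feedback inhibitor of cytokine signalling, fell by 29.32 ± 5.29 (adjusted p = 0.0063). Its pre values ran from 5.1 to 66.2, with young pre 4 the only one under 32, and its post values from 4.5 to 27.1. Nr4a1, an immediate early nuclear receptor, was the only one called of 7 AP-1 and immediate early members (-20.62 ± 4.88, adjusted p = 0.031, but 14.45 by area per base with adjusted p = 0.46), and Itga6 of the 5 adhesion members (-10.74 ± 1.89, adjusted p = 0.0057). Arap1, 1810010H24Rik, Fam110a, Asic1 and Ccdc12 had differences between -9.59 and -19.54.

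A start-site window from each of the age and stage comparisons shows the DNA under a member that was higher. Both were chosen after their values were seen. Gm33560 (chr7:141122981-141123230, + strand), a non-coding start near Ano9, held a member that was higher in old than in young pre HSCs by 10.53 ± 2.15 (adjusted p = 0.029), with RUNX letters in capitals. Steap3 (chr1:120265287-120265536, - strand), a ferrireductase gene, held one that was higher post than pre by 20.32 (adjusted p = 0.034), with ETS letters in capitals:

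Gm33560: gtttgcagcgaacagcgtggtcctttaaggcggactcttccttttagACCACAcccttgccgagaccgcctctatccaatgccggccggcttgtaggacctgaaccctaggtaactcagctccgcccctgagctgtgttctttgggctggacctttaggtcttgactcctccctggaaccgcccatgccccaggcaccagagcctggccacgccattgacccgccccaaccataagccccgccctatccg
Steap3: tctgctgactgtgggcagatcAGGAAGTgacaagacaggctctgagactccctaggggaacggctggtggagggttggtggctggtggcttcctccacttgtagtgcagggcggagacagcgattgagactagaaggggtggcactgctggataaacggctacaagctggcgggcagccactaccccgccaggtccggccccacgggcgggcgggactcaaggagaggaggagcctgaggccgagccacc

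Of the 93 members, 9 were called in both comparisons. Of the 8 that were higher in old pre HSCs, 4 were higher post than pre over both ages, Sp110, Ffar2 and Sema4b among them, and Arhgef10, Foxl1, Tmc1 and Tgm2 were lower. These are means of the ages, which could differ. In Tmc1 the post-minus-pre difference was 0.61 in young (adjusted p = 0.97) and -21.51 in old (adjusted p = 0.011), and in Foxl1 it was -0.46 (adjusted p = 0.98) and -18.83 (adjusted p = 0.012). Sp110 had 44.41 in young (adjusted p = 0.0036) and 8.54 in old (adjusted p = 0.57). Fam102a, lower in old pre HSCs and higher post over both ages, had 8.25 (adjusted p = 0.57) and 31.78 (adjusted p = 0.0096). The interaction was not called for these 4 genes (adjusted p = 0.23 to 0.39). The comparisons share the pre libraries.

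The members that varied most included steep and narrow ones. There were 14, under 700 bp wide at the median and at or above the 95th percentile for area per base. They included regions near Rab10 (chr12:3109824-3110166), Rpusd4, Pex2 and Chl1, and 2 near Lrrc4c apart from the strongest one. The Rab10 region had 52.1, 94.0, 81.8 and 95.9 in young pre libraries, 75.9, 51.7, 92.8 and 99.3 in old pre, 28.0, 29.4, 27.1 and 21.3 in young post, and 55.7, 31.2, 36.8 and 90.9 in old post. All 4 young post values were below the other 12, the pre values varied widely within both ages, and the width stayed between 338 and 343 bp. Of the 14, 9 were among the 45 members lower after transplantation, which leaves 36 without them. Published lists of artefact-prone regions were not used here.

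**Figure D5:**
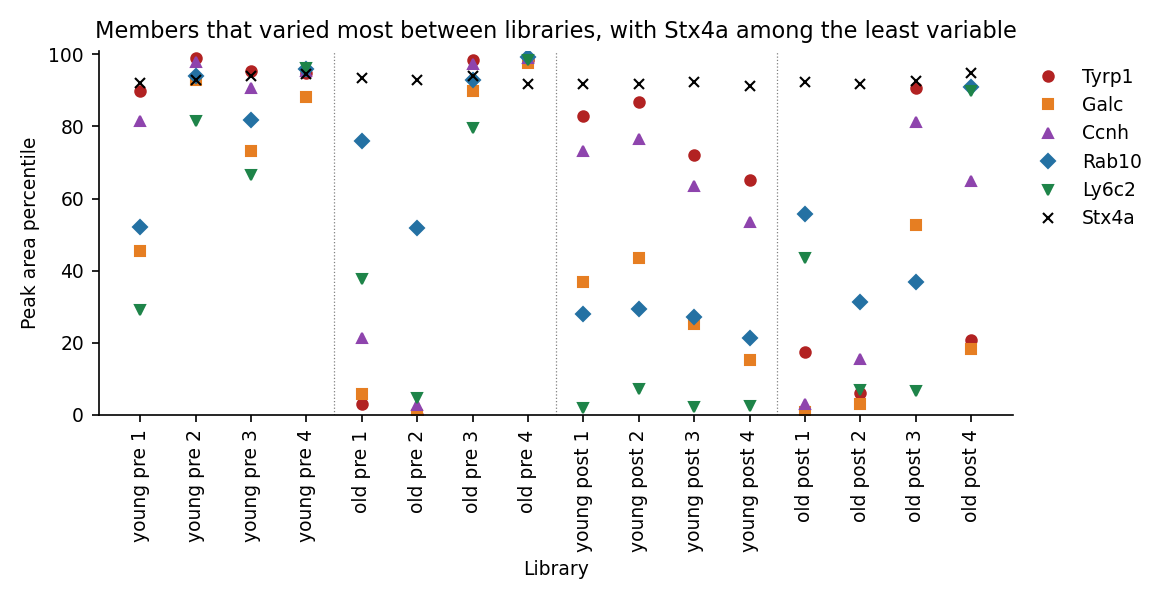
Peak area percentile (y axis, 0 to 100) of 6 members in each of the 16 libraries (x axis), with dotted lines between groups. Tyrp1, Galc, Ccnh, Rab10 and Ly6c2 ranged over more than 70 points between libraries, and Stx4a stayed between 91.3 and 94.7.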

How the data were processed

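Peak lists of 16 ATAC-seq libraries of mouse HSCs were analysed. Per the submitters' processing notes, the tools were Genrich for peaks, cutadapt and Trim Galore for trimming, FastQC and MultiQC for quality, and DESeq2, featureCounts and ChIPseeker, and the build was mm10. No aligner, version or setting is given in the sources used here. A separate list was deposited for each library, and the file columns do not state whether libraries were pooled in the calling. The deposited peak score is the area under the significance curve, with a smallest value near 200, and is not normalised between libraries. The deposited lists also give the −log10 p at the summit and the summit's offset. Of 387029 peaks, 393 (0.102%) on other sequences were left out.

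Regions were annotated with the RefSeq gene table (GRCm38.p6, 21627 protein-coding genes) and its start sites, which do not cover chromosome 18 (37 members). Percentiles of summed area were fitted with limma 3.58.1 in R 4.3.3 over all 5262 regions: lmFit on 4 group means, donor as a random block (correlation 0.155), eBayes with trend, Benjamini-Hochberg adjustment, threshold 0.05. The fit was also run on simulated data, with errors drawn independently for each library and no donor or day effect. That run therefore cannot show how the calls behave where such effects are present. The pairing comes from the series design: pre and post libraries of 1 age and number share donors. Their deviations from the group means correlated between -0.204 and 0.566. Some pre libraries correlated more with a post library of the same age and another number. These were old 1 (-0.014 against 0.475), old 2 (0.448 against 0.56), old 3 (-0.204 against 0.41) and young 2 (0.034 against 0.092). In young 1, 3 and 4 and in old 4 the paired library gave the highest value. P values measure the spread between these libraries. Members were named by the nearest protein-coding gene: the 12 strongest, up to 10 per direction and comparison by p, up to 4 genes per list, and the densest windows and genes. The members and gene lists were chosen with earlier results of these data known. Python 3.11.15 with numpy 2.4.6, pandas 2.3.3, scipy 1.17.1 and matplotlib 3.10.9 was used. A few genes and their members are not reported here by name and are left out of the plots of single members.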

Additional observations from a re-analysis of the deposited data

Results flagged for a closer look

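In 6 of 164 groups of 4 libraries, over the named members and the per-library summaries, a single library stood apart by Dixon's test. Chance gives about 1 in 20. The low ones were Prex1 in young post 1 (51.8 against 60.5 to 61.9), Col16a1 in young post 4 (31.3 against 48.2 to 48.6), Gprc5a in old pre 3 (47.0 against 52.7 to 53.2), Uaca in young pre 4 (60.3 against 68.6 to 69.7) and Ccdc12 in young post 4 (5.2 against 6.8 to 7.0). Arhgef10 was high in young post 4 (10.6 against 6.5 to 7.0).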

How the results depend on the processing

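For old against young before transplantation (46 members called), the count was 14 by the rank of the −log10 p at the summit, 94 with old and young of the same number as a replicate block, 247 with day as a covariate, 0 by area per base and 0 by exact permutation. Over all regions these counts were 31, 176, 850, 0 and 0, against 65 as reported. With regions chosen without old pre 4, the 2 shortest lists or the 3 shortest lists, an alternative added after seeing the data, it was 99, 392 and 607, with 293 and 443 higher in the last pair. Those choices held 2851, 5056 and 6307 members. Over all regions they gave 151 of 8790, 592 of 12107 and 967 of 14499. Leaving out 1 library gave 23 to 50, the lowest without young pre 3, and 25 to 78 over all regions. For post against pre (93), the count was 13 by area per base, 52 with no replicate block, 157 without the 3 shortest lists, 0 by exact permutation and 163, 647 and 810 with regions chosen again. Over all regions these counts were 24, 102, 389, 0, 291, 1131 and 1407, against 187 as reported. Leaving out 1 library gave 43 to 99, the lowest without old post 4 and next young post 3 (44), old post 2 (46), young pre 3 (49), young post 2 (50) and young post 1 (54). Over all regions those fits gave 79 to 205. For old against young after transplantation (0), it was 1 with ranks among the members alone and 2 with regions chosen without the 2 or the 3 shortest lists, and 0 in every fit without 1 library. Over all regions the choices without the 2 or the 3 shortest lists gave 5 and 6. For the interaction (1), it was 4 with ranks among the members alone, 0 by area per base, 0 with no replicate block, 0 by exact permutation, 0, 3 and 4 with regions chosen again, and 0 to 4 without 1 library. The cause of these changes was not tested. By area per base, Gprc5a changed sign to -30.9 (old against young after transplantation, adjusted p = 0.82) and Arap1 to 11.06 (post against pre, adjusted p = 0.64). Over all called members, area per base turned the sign of 4 of 44 higher in old pre (Pim1 and Tgm2 among them), 4 of 48 higher post and 8 of 45 lower post (Pex2, Nr4a1 and Tmc1 among them). The summit −log10 p turned 1 of 48 higher post (Sema4b). The number of members (1447) was 422 with peaks of area 400 or more, 2891 with 15 libraries enough, 755 with no peak of 1500 bp or wider, 2851, 5056 and 6307 with the short lists left out, and 1445 to 2851 without 1 library. The CTCF share (5.58%) was 12.35% with the looser spelling. Motif windows around summits were not run, since no genome sequence was used, so the alternative window was not run either.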

Other observations

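Among the 8 members that varied most between libraries, picked after their values were seen, several split the old donors. The region near Tyrp1 (chr4:80002523-80004335) had 89.8, 98.9, 95.4 and 94.8 in young pre libraries, 2.9, 0.1, 98.5 and 98.4 in old pre, 82.8, 86.9, 72.1 and 65.2 in young post, and 17.4, 6.2, 90.7 and 20.7 in old post. Old donors 1 and 2 were thus low both before and after transplantation, and old donor 3 was high in both. The regions near Galc, Ccnh, G6pd2 and Eea1 were likewise lowest in the 4 libraries of old donors 1 and 2. Galc gave 5.8 and 0.1 in their pre and 0.9 and 3.0 in their post libraries, against 15.3 to 97.7 elsewhere. Those libraries filled days 1 and 4 alone, so donor and day cannot be told apart. In all, 7 members (0.48%) had their 4 lowest values there, against 0.38% of all regions, and 3 of those 7 were among the 14 steep and narrow members. The 7 were Abcb11, Tyrp1, G6pd2, Eea1, Galc, Ccnh and Hsf2bp.

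The region near Ly6c2 (chr15:75086015-75087092) went another way. It had 29.1, 81.4, 66.4 and 96.2 in young pre libraries, 37.6, 4.7, 79.7 and 98.4 in old pre, 1.8, 7.1, 2.3 and 2.4 in young post, and 43.4, 6.9, 6.5 and 89.7 in old post. Its 3 highest values were in the 3 shortest lists. That was so for 178 members (12.3%) and for 875 of all 5262 regions (16.63%), so a rank that goes with list length was common at gene ends (19.66%) too. The 44 members higher in old pre HSCs could not have this pattern. In each of them all 4 old pre libraries stood above young pre 4, which is among the 3 shortest lists. Their lack of it therefore says nothing about list length. Ly6c2 belongs to a family of similar genes, between which reads may be shared.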
